A study of Mus musculus with 8 samples.

Results

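The hemidesmosome and laminin-332 genes were taken as the rows of the deposited gene expression table named Itga3, Itga6, Itgb1, Itgb4, Col17a1, Dst, Plec, Lama3 or Lamb3. These were 9 of the 34745 genes in the table. RNA sequencing had measured gene expression in total RNA of 8 mouse skin samples, 4 labelled NcstnΔKC and 4 labelled normal, all labelled male and taken at 16 weeks of age. The protocol calls the excised skin lesions for both groups. According to the protocol text, both groups carried floxed alleles of Ncstn (Ncstn flx/flx), which encodes the γ-secretase subunit nicastrin, and the tamoxifen-inducible recombinase Krt14 CreER (+/-). The Krt14 promoter that drives it is active in basal keratinocytes of epidermis and hair follicle. From 8 weeks of age the NcstnΔKC mice were given tamoxifen by oral gavage at 20 mg per kg per day on 5 consecutive days and then every 10 days. The normal mice received corn oil instead, although their genotype label reads wildtype. Tamoxifen and recombination therefore cannot be told apart in the comparison. No label says whether the replicates of a group came from separate litters or cages. The p-values thus set group differences against the spread within the groups of these samples alone.

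Hemidesmosomes are rivets that hold basal keratinocytes to the basement membrane. In them integrin α6β4 and the transmembrane collagen type XVII bind laminin-332 outside the cell, while the plakin proteins plectin and dystonin tie the complex to the keratin filaments inside. Integrin α3β1 binds the same laminin in focal adhesions, where it connects to actin. In humans, loss-of-function variants of most of these genes cause the blistering disease epidermolysis bullosa.

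Total counts ran from 11881506 to 12893174 in NcstnΔKC libraries and from 5835422 to 8663753 in normal libraries. The 9 genes had between 282 and 34570 counts in every library, and all 9 passed the filter on low counts. The targeted gene Ncstn averaged 57.7 ± 6.86 CPM (counts relative to the TMM-scaled library size) in NcstnΔKC libraries and 60.6 ± 1.54 in normal libraries (SD, n = 4 each), which was not a fall past the threshold (log2 fold change -0.07 ± 0.12 SE, edgeR adjusted p = 0.663). The counts cover the whole gene and do not separate the floxed exons, so libraries are named by their label alone. Against the label male, NcstnΔKC replicates 3 and 4 and normal replicates 3 and 4 held 22304 to 37109 counts of the female-specific transcript Xist, and the other 4 libraries held 4 to 9. Summed counts of the Y-linked genes Ddx3y, Eif2s3y, Kdm5d and Uty were 0 to 3 in the libraries with Xist and 886 to 4453 in the other 4. In bulk skin, fewer cells of a type and less RNA per cell cannot be told apart. Markers of several cell types moved with the groups, and those of others overlapped between the groups. Basal keratinocyte markers (Krt5, Krt14, Trp63, Cdh3 and Dlk2) summed to 6846 to 10911 CPM in NcstnΔKC libraries and to 3990 to 4718 CPM in normal libraries, with 4 of 5 higher, 0 lower and none at 0 counts. Skeletal muscle markers summed to 581 to 5241 CPM in NcstnΔKC libraries and to 6509 to 61404 CPM in normal libraries, with 7 of 7 lower and none at 0 counts. Hair follicle bulge markers summed to 388 to 705 CPM in NcstnΔKC libraries and to 1765 to 2894 CPM in normal libraries, with 6 of 6 lower and none at 0 counts. Adipocyte markers summed to 23.6 to 163 CPM in NcstnΔKC libraries and to 218 to 643 CPM in normal libraries (4 of 5 lower, 1 at 0 in a library), and smooth muscle markers to 99.96 to 161 CPM in NcstnΔKC libraries and to 359.9 to 449 CPM in normal libraries (2 of 3 lower). Fibroblast markers summed to 4282 to 12255 CPM in NcstnΔKC libraries and to 33418, 34312, 4437 and 5083 CPM in normal replicates 1 to 4 (1 of 6 lower). Suprabasal keratinocyte markers summed to 3581 to 6930 CPM in NcstnΔKC libraries and to 5332 to 10426 CPM in normal libraries, with overlap (2 of 6 higher, 3 lower). Sums of fibroblast, leukocyte, endothelial and Schwann cell markers also overlapped between the groups. The part of all these cells in the results below was not tested.

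The comparison asked how transcripts of this adhesion complex differed in NcstnΔKC skin, set against normal skin. All 4 integrin genes, Col17a1 and both laminin chain genes were higher in NcstnΔKC skin, by 1.58-fold for Col17a1 to 4.37-fold for Itga3, with TMM scaling. When libraries were scaled by basal keratinocyte markers, which shifted the median of all genes to -1.53, all of these but Itga3 were below 0. Relative to that median the 7 were at 0.70 to 2.16, nearly as with TMM (0.68 to 2.15). Rescaling shifts all genes by nearly the same amount, so this step could not give another result. Both plakin genes were lower, Dst at 44.2% and Plec at 64.5% of the level in normal skin. With a threshold of 0.05 on p-values that were adjusted over 15684 genes by the Benjamini-Hochberg method (edgeR, quasi-likelihood), all 9 genes were called, 7 higher and 2 lower. Of all tested genes 44.1% were called, 21.4% higher and 22.7% lower. In TMM-scaled CPM the groups of all 9 did not overlap, as in 41.6% of all tested genes, but in the deposited FPKM those of Plec did. The median log2 fold change was 1.12 over the 9 genes and -0.02 over all tested genes. Called log2 fold changes of 1 or more were seen in 5 of the 9, against 10.2% of tested genes, and of -1 or less in 1 of the 9, against 14.7%.

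**Figure D1:**
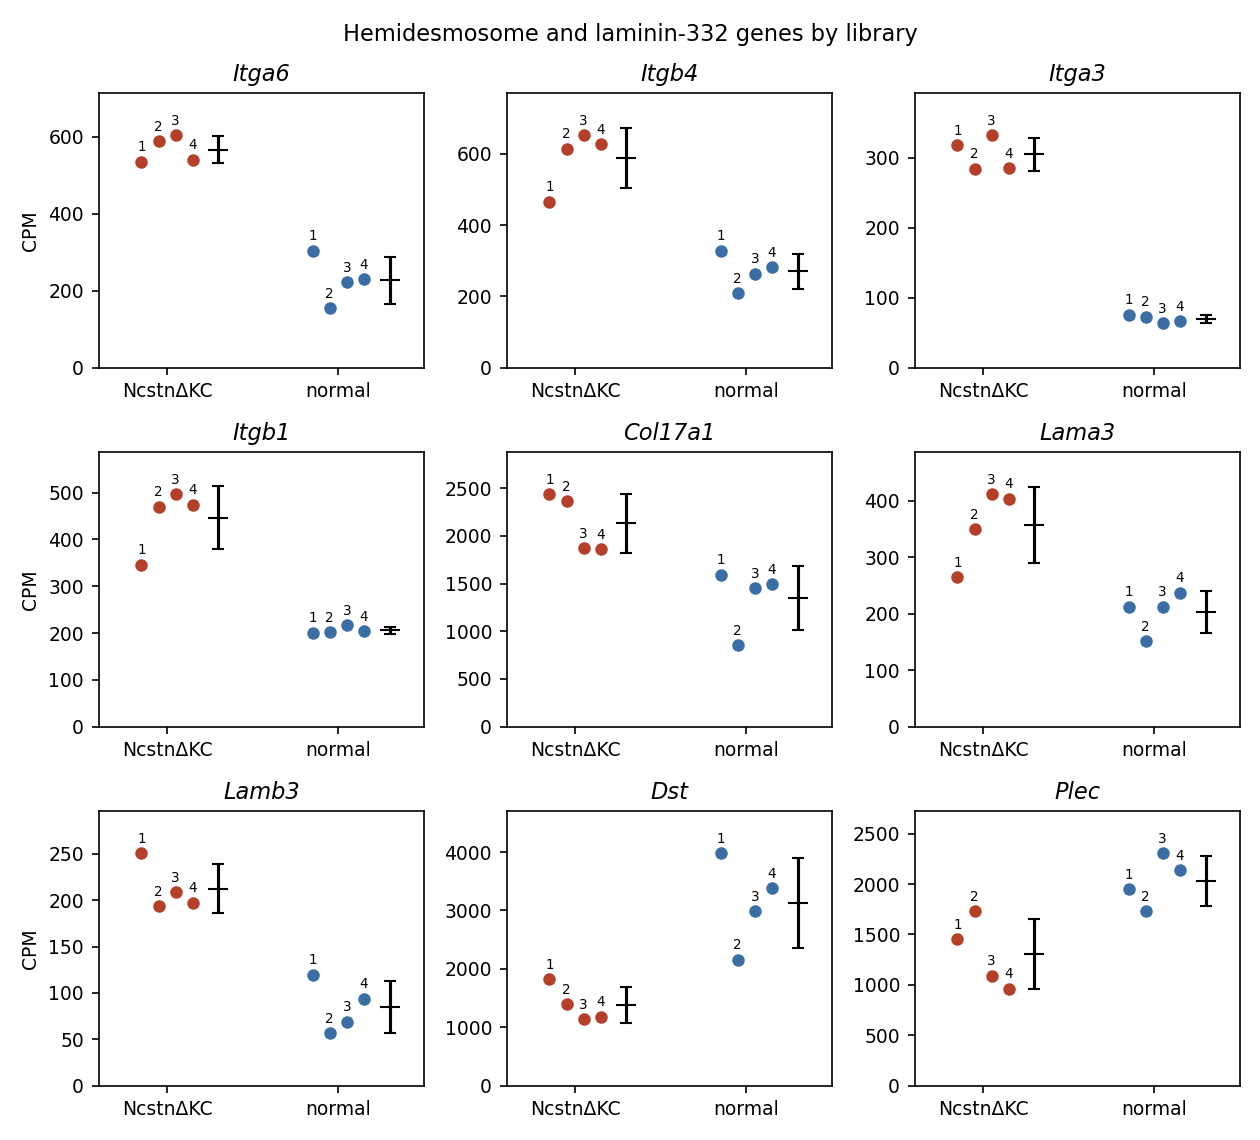
Expression of the 9 genes in CPM (y axis, linear, from 0) in the 4 NcstnΔKC and 4 normal libraries (points, numbered by replicate), with the mean and SD as black bars. The groups do not overlap in any panel; with this TMM scaling 7 genes are higher and Dst and Plec lower in NcstnΔKC skin, and with scaling by basal keratinocyte markers, where the median of all genes is -1.53, Itga3 alone is higher.

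The integrin subunits come first, as the receptors of the complex. Itga6 (ENSMUSG00000027111, mm10 chromosome 2, 71745616 to 71858416) encodes the laminin-binding α6 chain that pairs with β4 in hemidesmosomes. It had 535, 589, 604 and 540.1 CPM in NcstnΔKC replicates 1 to 4, against 304, 154, 222 and 229 CPM in normal replicates 1 to 4. Every NcstnΔKC library was above every normal library, and normal replicate 2 was lowest. The mean was 567 ± 34.6 CPM in NcstnΔKC and 227 ± 61.5 CPM in normal libraries (SD, n = 4 each). The log2 fold change was 1.32 ± 0.20 (SE, edgeR adjusted p = 0.00111).

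Itgb4 (ENSMUSG00000020758, chromosome 11, 115974709 to 116008412) encodes the β4 chain, whose long cytoplasmic tail binds plectin. It had 465, 614, 652 and 626 CPM in NcstnΔKC replicates 1 to 4, against 328, 209, 264 and 282 CPM in normal replicates 1 to 4. NcstnΔKC replicate 1 was the lowest of its group and still above all normal libraries. Its log2 fold change was 1.12 ± 0.17 (SE, edgeR adjusted p = 0.00138). The chains of the α6β4 receptor were also set against each other. Within a library, log2 CPM of Itgb4 minus that of Itga6 averaged 0.05 ± 0.18 in NcstnΔKC and 0.27 ± 0.14 in normal libraries (SD, n = 4 each), and the groups overlapped (difference -0.23, exact two-sided permutation test p = 0.0857, adjusted p = 0.137 over 16 such differences).

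Itga3 (ENSMUSG00000001507, chromosome 11, 95044474 to 95076801) encodes the α3 chain of the focal adhesion receptor α3β1. It had 318, 285, 332.4 and 285 CPM in NcstnΔKC replicates 1 to 4, against 75.8, 73.2, 63.7 and 66.7 CPM in normal replicates 1 to 4. The gap between the groups was wide and the spread within them small, with a coefficient of variation of 7.9% in NcstnΔKC and 8.02% in normal libraries. The mean was 305 ± 24.1 CPM in NcstnΔKC and 69.8 ± 5.6 CPM in normal libraries (SD, n = 4 each). The log2 fold change was 2.13 ± 0.12 (SE, edgeR adjusted p = 4e-05). Of all tested genes, 97.5% had a lower log2 fold change. RefSeq gave 2 start sites, and the counts do not separate them. The 250 bases before the second (chr11:95069199-95069448) hold 50.8% G and C and 1 match to the GC box GGGCGG. Those before the first (67.6% G and C, GRCm38.p6, the assembly of mm10, chr11:95076715-95076964, minus strand) are shown because Itga3 had the largest log2 fold change of the 9, and capitals mark 3 matches to the same motif.
Itga3: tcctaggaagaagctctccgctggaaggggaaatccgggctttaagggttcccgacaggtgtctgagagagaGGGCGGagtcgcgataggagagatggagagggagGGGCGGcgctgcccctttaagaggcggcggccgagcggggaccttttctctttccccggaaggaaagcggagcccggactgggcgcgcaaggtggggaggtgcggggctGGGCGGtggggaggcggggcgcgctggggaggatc

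Itgb1 (ENSMUSG00000025809, chromosome 8, 128685654 to 128733200) encodes the β1 chain, which pairs with α3 and with many other α chains and is made by nearly every cell type of skin. It had 346, 469.9, 496 and 474 CPM in NcstnΔKC replicates 1 to 4, against 201, 202, 216 and 204 CPM in normal replicates 1 to 4. The normal libraries lay close together (coefficient of variation 3.41%, against 15.2% in NcstnΔKC libraries), and NcstnΔKC replicate 1 was the lowest of its group. On the log2 scale it was higher by 1.12 ± 0.14 (SE, edgeR adjusted p = 0.000486). Itga3 was set against its partner chain and against Itga6. The log2 difference Itga3 minus Itgb1 was -0.54 ± 0.29 in NcstnΔKC and -1.56 ± 0.16 in normal libraries (SD, n = 4 each), 1.02 apart with no overlap (exact permutation p = 0.0286, the smallest that 70 arrangements allow, adjusted p = 0.0914). Itga3 minus Itga6 was -0.89 ± 0.13 in NcstnΔKC and -1.66 ± 0.41 in normal libraries, 0.77 apart and also without overlap (exact permutation p = 0.0286, adjusted p = 0.0914). Itgb4 minus Itgb1 was 0.40 ± 0.02 in NcstnΔKC and 0.38 ± 0.28 in normal libraries (difference 0.02, exact permutation p = 0.83, adjusted p = 0.884). None of the 16 within-library differences passed 0.05 after adjustment.

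Col17a1 (ENSMUSG00000025064, chromosome 19, 47646344 to 47692094) encodes type XVII collagen, the transmembrane collagen of hemidesmosomes and the autoantigen BP180. It had 2436, 2362, 1872 and 1858 CPM in NcstnΔKC replicates 1 to 4, against 1592, 853, 1449.9 and 1492 CPM in normal replicates 1 to 4. The groups did not overlap, but NcstnΔKC replicates 3 and 4 were near normal replicate 1, and normal replicate 2 was lowest. It was higher by 0.66 ± 0.23 on the log2 scale (SE, edgeR adjusted p = 0.0394), the smallest rise of the 7. The call ended, with adjusted p of 0.0513 to 0.0878, without NcstnΔKC replicate 1 (0.60), NcstnΔKC replicate 2 (0.62), NcstnΔKC replicate 3 (0.73), normal replicate 3 (0.76) or normal replicate 4 (0.77). It also ended with the replicate number as a block (0.69, adjusted p = 0.0724) and with Xist as a covariate (0.66, adjusted p = 0.0523). The 250 bases before its start (GRCm38.p6, chr19:47692043-47692292, minus strand) are shown because Col17a1 had the highest level per length of the 9, and capitals mark 2 matches to the TATA box TATAAA.
Col17a1: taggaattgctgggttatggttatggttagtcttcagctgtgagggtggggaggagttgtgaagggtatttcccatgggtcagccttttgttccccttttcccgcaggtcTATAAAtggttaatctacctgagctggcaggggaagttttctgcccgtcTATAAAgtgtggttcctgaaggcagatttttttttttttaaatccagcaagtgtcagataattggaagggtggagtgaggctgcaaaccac

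Lama3 and Lamb3 encode the α3 and β3 chains of the ligand laminin-332. Lama3 (ENSMUSG00000024421, chromosome 18, 12333819 to 12583013) had 265, 349, 411 and 403 CPM in NcstnΔKC replicates 1 to 4, against 212, 151, 212 and 237 CPM in normal replicates 1 to 4. NcstnΔKC replicate 1 lay just above the highest normal library. Its log2 fold change was 0.81 ± 0.19 (SE, edgeR adjusted p = 0.00801). Lamb3 (ENSMUSG00000026639, chromosome 1, 193207699 to 193343878) had 251, 193, 208 and 197 CPM in NcstnΔKC replicates 1 to 4, against 119.8, 56.9, 68.8 and 93.7 CPM in normal replicates 1 to 4. Here NcstnΔKC replicate 1 was the highest library, the reverse of its place in Lama3. The log2 fold change was 1.32 ± 0.23 (SE, edgeR adjusted p = 0.00211). Lamb3 minus Lama3 was -0.73 ± 0.44 in NcstnΔKC and -1.30 ± 0.34 in normal libraries (SD, n = 4 each), with overlap (difference 0.56, exact permutation p = 0.114, adjusted p = 0.152).

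The plakins went the other way. Plec (ENSMUSG00000022565, chromosome 15, 76170974 to 76232574) encodes plectin, a large linker of keratin filaments that is also abundant in muscle. It had 1456, 1728.5, 1092 and 960.8 CPM in NcstnΔKC replicates 1 to 4, against 1950.3, 1729.5, 2305 and 2139.9 CPM in normal replicates 1 to 4. The groups nearly touched, since NcstnΔKC replicate 2 lay just below normal replicate 2. The log2 fold change was -0.63 ± 0.22 (SE, edgeR adjusted p = 0.0403). The call rested on several libraries. It ended without NcstnΔKC replicate 3 (-0.55), NcstnΔKC replicate 4 (-0.50), normal replicate 1 (-0.58), normal replicate 2 (-0.65), normal replicate 3 (-0.50) or normal replicate 4 (-0.55), with adjusted p of 0.0507 to 0.128, and with scaling by total counts (-0.32, adjusted p = 0.249). It also ended with FPKM (-0.33, adjusted p = 0.199), no filter (-0.50, adjusted p = 0.0804) and the replicate number as a block (-0.67, adjusted p = 0.083). Exons of Plec overlap those of Parp10 on the same strand, which had 66 to 395 counts in a library.

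Dst (ENSMUSG00000026131, chromosome 1, 33908225 to 34308661) encodes dystonin, whose epithelial isoform is the hemidesmosomal autoantigen BP230, and whose other isoforms serve nerve and muscle. It had 1818, 1399, 1133 and 1179.7 CPM in NcstnΔKC replicates 1 to 4, against 3977, 2155.5, 2986 and 3380.3 CPM in normal replicates 1 to 4. Every NcstnΔKC library was below every normal library. In the deposited FPKM the groups nearly touched, with 35.31 in NcstnΔKC replicate 1 and 35.47 in normal replicate 2. The mean was 1382.5 ± 313 CPM in NcstnΔKC and 3125 ± 764 CPM in normal libraries (SD, n = 4 each). The log2 fold change was -1.18 ± 0.24 (SE, edgeR adjusted p = 0.00489). Plec minus Dst was -0.09 ± 0.29 in NcstnΔKC and -0.59 ± 0.33 in normal libraries (SD, n = 4 each), a difference of 0.50 with overlap (exact permutation p = 0.0571, adjusted p = 0.102). The deposited counts merge all isoforms of the gene, for which GENCODE M21 lists 14 protein-coding transcripts with 11 start positions. RefSeq gave 2 starts 148665 bases apart, and the 250 bases before each are shown because the counts cannot assign the fall to either. The upstream one (GRCm38.p6, chr1:34011345-34011594, plus strand) has 68.8% G and C and 4 GC boxes in capitals. The downstream one (chr1:34160010-34160259, plus strand) has 45.2% G and C and no match to the 3 motifs searched.
Dst upstream: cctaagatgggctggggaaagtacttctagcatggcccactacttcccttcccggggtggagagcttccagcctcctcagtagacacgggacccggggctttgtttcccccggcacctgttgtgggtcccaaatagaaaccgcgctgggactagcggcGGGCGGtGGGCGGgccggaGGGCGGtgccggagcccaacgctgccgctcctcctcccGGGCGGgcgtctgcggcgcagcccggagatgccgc
Dst downstream: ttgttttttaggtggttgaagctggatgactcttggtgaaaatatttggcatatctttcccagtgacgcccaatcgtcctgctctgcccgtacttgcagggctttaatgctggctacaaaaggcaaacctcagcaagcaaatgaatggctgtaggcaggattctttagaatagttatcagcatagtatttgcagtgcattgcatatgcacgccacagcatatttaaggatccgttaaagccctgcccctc

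Muscle markers were lower together with the plakins, as given above. Their sum was lower in every NcstnΔKC library than in every normal library, as was Dst. Bulge, adipocyte and smooth muscle sums did not overlap between groups either. Within groups the order varied. Normal replicate 1 had the group's lowest muscle sum (6509 CPM) but highest Dst, and normal replicate 3 the highest sum (61404 CPM) and highest Plec. NcstnΔKC replicate 1 had its group's highest sum (5241 CPM) and highest Dst, and NcstnΔKC replicate 2 the lowest sum (581 CPM) but highest Plec. The part of muscle cells in the fall of either plakin was not tested.

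**Figure D2:**
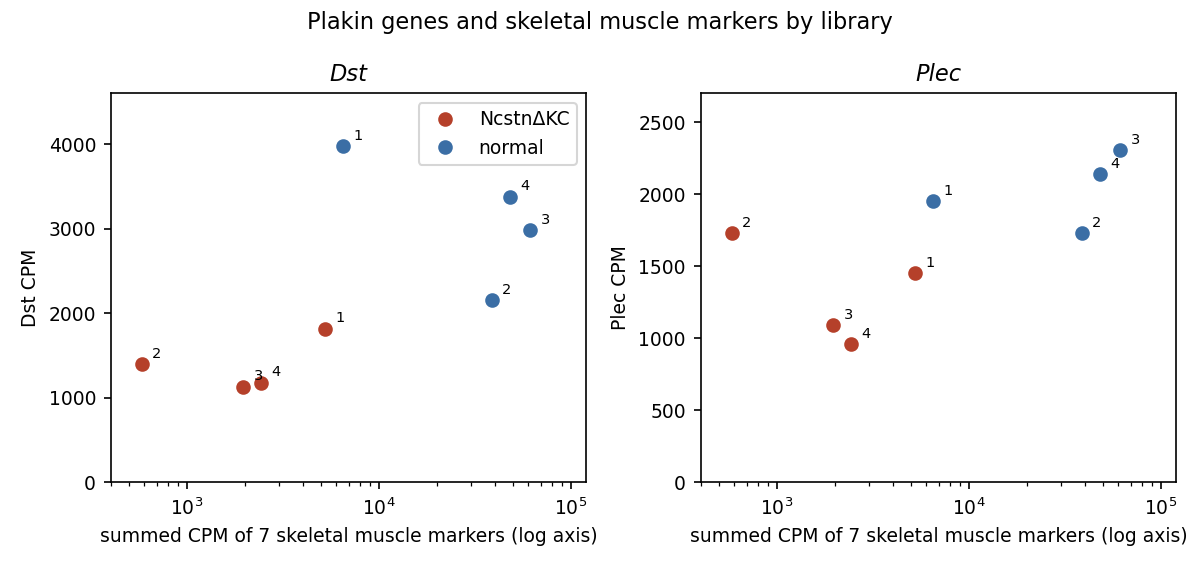
Dst (left) and Plec (right) in CPM (y axis, linear, from 0) against the summed CPM of 7 skeletal muscle markers (x axis, log scale) in each library, numbered by replicate. Muscle sums span 581 to 5241 CPM in NcstnΔKC and 6509 to 61404 CPM in normal libraries, and Dst spans 1133 to 1818 CPM in NcstnΔKC and 2155.5 to 3977 CPM in normal libraries.

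Levels of different genes were compared per length, in the authors' FPKM (counts over the library total and the gene's length). In NcstnΔKC libraries Col17a1 was highest at 375.9 ± 45.9 FPKM, followed by Itgb1 at 88.7 ± 18.3, Itgb4 at 71 ± 14, Itga6 at 51.5 ± 5.77 and Itga3 at 50.3 ± 4 (SD, n = 4). Plec at 38.9 ± 10.6, Lama3 at 37.4 ± 8.86, Dst at 29.5 ± 4.73 and Lamb3 at 29.2 ± 1.49 FPKM came last. Apart from Col17a1, each gene's range overlapped that of the next in this order. In normal libraries Col17a1 was also first, at 191 ± 56.2 FPKM, but Dst at 54.4 ± 17 and Plec at 48.1 ± 5.96 FPKM came next. They were followed by Itgb1 at 32.3 ± 1.88, Itgb4 at 26 ± 6.54, Lama3 at 16.9 ± 3.7, Itga6 at 16.6 ± 5.64, Lamb3 at 9.51 ± 3.86 and Itga3 at 9.22 ± 1.33 FPKM. The steps after Col17a1 and after Plec had no overlap, and all others did. Dst thus had rank 8 in NcstnΔKC and rank 2 in normal libraries, and Itga3 rank 5 in NcstnΔKC and rank 9 in normal libraries. The order depends on the length used. The FPKM of Plec assumed 37433 bases, whereas its merged exons in GENCODE M21 have 18113, and per kilobase of merged exons Plec had 72.3 ± 19.3 CPM in NcstnΔKC and 112 ± 13.7 CPM in normal libraries, rank 4 in NcstnΔKC and rank 2 in normal libraries. By that length Dst had rank 7 in NcstnΔKC and rank 3 in normal libraries, and Itga3 rank 6 in NcstnΔKC and rank 9 in normal libraries.

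Several of the 9 genes are made mainly by basal keratinocytes, so they were also set against Krt5 and Krt14, the keratins to which hemidesmosomes are tied. Krt14 averaged 3399 ± 924 CPM in NcstnΔKC and 843 ± 103 CPM in normal libraries, and Krt5 averaged 5222 ± 990.4 CPM in NcstnΔKC and 2813 ± 207 CPM in normal libraries (SD, n = 4 each). Their log2 fold changes were 2.01 ± 0.24 for Krt14 (SE, edgeR adjusted p = 0.000449) and 0.89 ± 0.20 for Krt5 (adjusted p = 0.00686). Relative to the mean log2 CPM of this pair, Itga3 was at -3.75 ± 0.42 in NcstnΔKC and -4.46 ± 0.08 in normal libraries, 0.70 higher without overlap. Dst was at -1.60 ± 0.65 in NcstnΔKC and 0.99 ± 0.40 in normal libraries, a difference of -2.59, and Plec at -1.69 ± 0.60 in NcstnΔKC and 0.40 ± 0.29 in normal libraries, a difference of -2.09, both without overlap. For Itga3, Dst and Plec the exact permutation p was the smallest possible, 0.0286 (adjusted p = 0.0914). For the other 6 the groups overlapped. Their differences, NcstnΔKC minus normal, were -0.05 for Lamb3, -0.06 for Itga6, -0.29 for Itgb4, -0.32 for Itgb1, -0.61 for Lama3 and -0.73 for Col17a1, with exact permutation p of 0.0571 to 0.943.

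**Figure D3:**
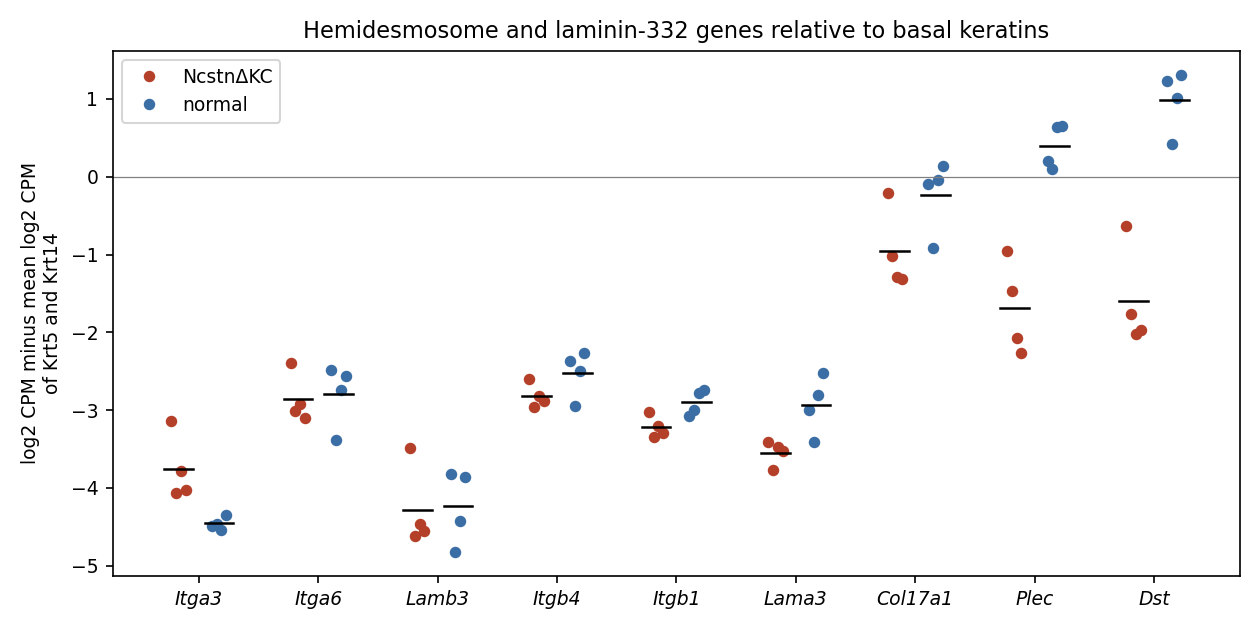
Log2 CPM of each gene minus the mean log2 CPM of Krt5 and Krt14 in the same library (y axis) for NcstnΔKC (red, left of each pair) and normal libraries (blue), with group means as black lines. The difference between groups is -2.59 for Dst, -2.09 for Plec and 0.70 for Itga3, and the other 6 genes overlap between groups.

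The direction of 6 genes hung on how libraries were scaled. With scaling by the 5 basal keratinocyte markers, the median log2 fold change of all tested genes was itself -1.53, and the values were 0.62 for Itga3, -0.16 for Lamb3, -0.18 for Itga6, -0.38 for Itgb4, -0.40 for Itgb1, -0.70 for Lama3 and -0.84 for Col17a1. Those for Plec and Dst were -2.15 and -2.66. Relative to that median the values ran from 2.16 for Itga3 to -1.13 for Dst, against 2.15 and -1.15 with TMM. Such a rescaling shifts all genes by nearly the same amount, so this closeness was fixed in advance. With scaling by total counts, where the median was 0.29, all 9 kept their direction.

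**Figure D4:**
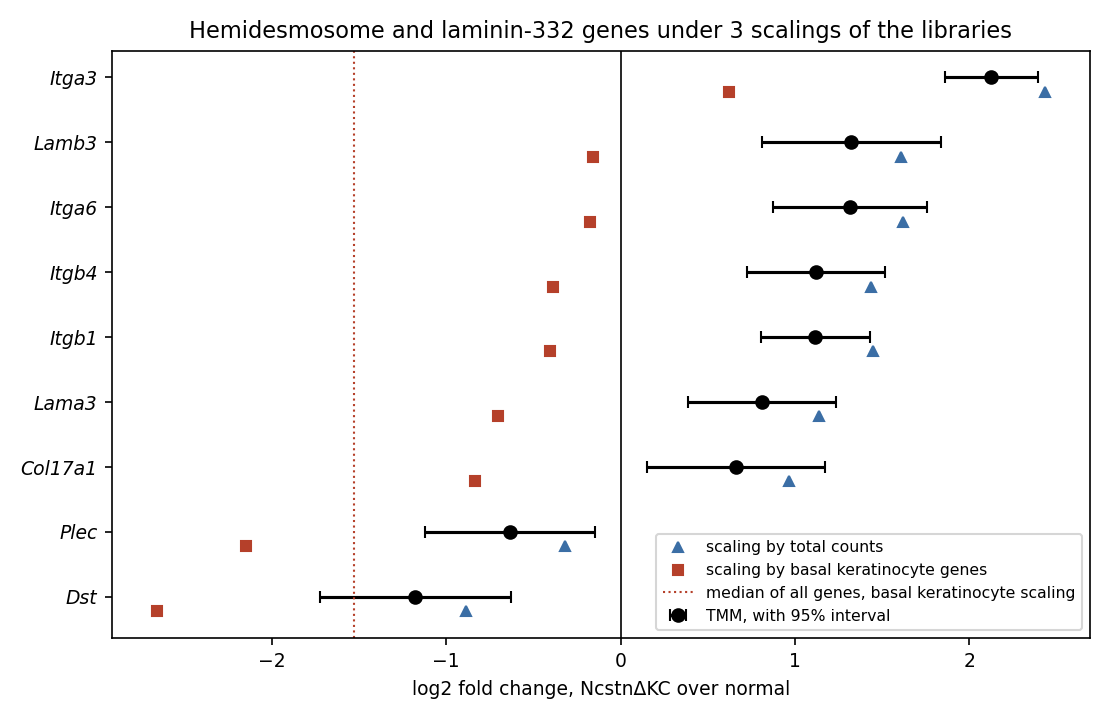
Log2 fold change of each gene, NcstnΔKC over normal (x axis), with TMM scaling (black points, 95% interval), total counts (blue triangles) and basal keratinocyte markers (red squares). The red dotted line is the median of all genes in the last scaling, -1.53, where Itga3 at 0.62 is the one gene of the 9 above 0.

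The change was also looked at within the libraries with and without Xist, 2 against 2 each. In the libraries with Xist all 9 genes passed, 7 higher and 2 lower, as did 26.3% (higher) and 25.4% (lower) of all genes tested there, with log2 fold changes of 2.28 for Itga3, 1.38 for Itga6, 1.36 for Lamb3, 1.27 for Itgb4, 1.25 for Itgb1, 0.90 for Lama3, 0.38 for Col17a1, -1.08 for Plec and -1.42 for Dst. In the libraries without Xist the same 9 directions were seen, with 2.02 for Itga3, 1.33 for Lamb3, 1.30 for Itga6, 1.02 for Itgb1, 1.01 for Itgb4, 0.98 for Col17a1, 0.76 for Lama3, -0.21 for Plec and -0.93 for Dst. None of the 9 passed there with edgeR (adjusted p of 0.0711 to 0.707), where 4 of all tested genes (0.0255%) passed and 3921 had an unadjusted p under 0.05. A test of the difference between the 2 sets of libraries called 0 of the 9 and 0 of all tested genes in edgeR's interaction test. The largest difference among the 9 was that of Plec (-0.91, adjusted p = 0.827).

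A list of 32 partner genes held other basement membrane components, their processing enzyme, further keratinocyte integrins, focal adhesion proteins and the 2 keratins. All 32 were tested, of which 10 were higher, 8 lower and 14 not called, with a median log2 fold change of 0.14. The shares higher and lower among all tested genes were 21.4% and 22.7%, and the list was not tested against them. Among basement membrane genes, Lama5 (1.15 ± 0.16, adjusted p = 0.000839), the α chain of laminin-511, and Col7a1 (0.95 ± 0.21, adjusted p = 0.00613), the collagen of anchoring fibrils, were higher by edgeR. Bmp1, a protease that processes laminin-332 and procollagen VII, was also higher (0.90 ± 0.19, adjusted p = 0.00493). Lamc1, the γ chain that laminin-511 shares with other laminins, was lower (-0.50 ± 0.12, adjusted p = 0.0109), but not with total counts (-0.18, adjusted p = 0.27) or FPKM (-0.16, adjusted p = 0.312). Lamb2, a laminin β chain, was lower (-0.43 ± 0.14, adjusted p = 0.0357), but was likewise not called with total counts or FPKM. Lamb1, another laminin β chain, was not called (0.0039 ± 0.20, adjusted p = 0.989). Also lower were the Fraser complex genes Fras1 (-2.87 ± 0.30, adjusted p = 0.000234), Frem1 (-2.26 ± 0.48, adjusted p = 0.00581) and Frem2 (-0.77 ± 0.18, adjusted p = 0.009), which serve epidermal anchorage in the embryo. Frem1 was at -1.64 without normal replicate 1 and was not called with FPKM (adjusted p = 0.0503) or in the libraries with Xist alone (-1.43, adjusted p = 0.0573), and Frem2 was not called with total counts (-0.47, adjusted p = 0.0647) or FPKM (-0.32, adjusted p = 0.119). Nid2, a nidogen, had -1.41 ± 0.34 (adjusted p = 0.0103), and Col4a5, a type IV collagen chain, had -0.98 ± 0.21 (adjusted p = 0.00626). The other nidogen, Nid1 (-0.23, adjusted p = 0.316), was not called. Nor were the type IV collagen chains Col4a1 (-0.39, adjusted p = 0.263), Col4a2 (-0.22, adjusted p = 0.536) and Col4a6 (-0.92, adjusted p = 0.0506).

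Among adhesion genes, Itga5, the α chain of the fibronectin receptor, averaged 73.7 ± 12.3 CPM in NcstnΔKC and 25.1 ± 5.27 CPM in normal libraries (SD, n = 4 each) and had 1.56 ± 0.19 as its log2 fold change (edgeR adjusted p = 0.000419). Lims1, an adaptor of integrin-linked kinase, was higher by 0.78 ± 0.14 (adjusted p = 0.00306). Fermt2, the kindlin of many non-epithelial cells, fell to 28.3 ± 8.83 CPM in NcstnΔKC libraries, against 84.4 ± 22.8 CPM in normal libraries (-1.58 ± 0.27, adjusted p = 0.00228). The other kindlin of the list, Fermt1, was higher (0.41 ± 0.14, adjusted p = 0.0453). Itga2 (0.80 ± 0.27, adjusted p = 0.0405) and Parva (0.39 ± 0.14, adjusted p = 0.047) were higher too. Fermt1, Itga2 and Parva lost their calls without NcstnΔKC replicate 2, 3 or 4 or normal replicate 3. Cd151, the tetraspanin that binds α3β1 and α6β4, averaged 73.1 ± 8.37 CPM in NcstnΔKC and 65.4 ± 4.94 CPM in normal libraries and did not pass (0.16 ± 0.12, adjusted p = 0.317). It passed as higher with total counts (0.49, adjusted p = 0.0253), with FPKM (0.47, adjusted p = 0.0324) and when NcstnΔKC replicate 1 was left out together with normal replicate 2 (0.28, adjusted p = 0.049). With scaling by basal keratinocyte markers 0 of the 32 were higher and 29 lower, against 1.68% higher and 84.1% lower of all genes, and Lama5 (-0.35), Col7a1 (-0.57), Bmp1 (-0.60), Krt5 (-0.63), Lims1 (-0.73) and Cd151 (-1.36) turned negative. Krt5 and Krt14 are themselves among these markers, so the scaling in part sets their values there.

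**Figure D5:**
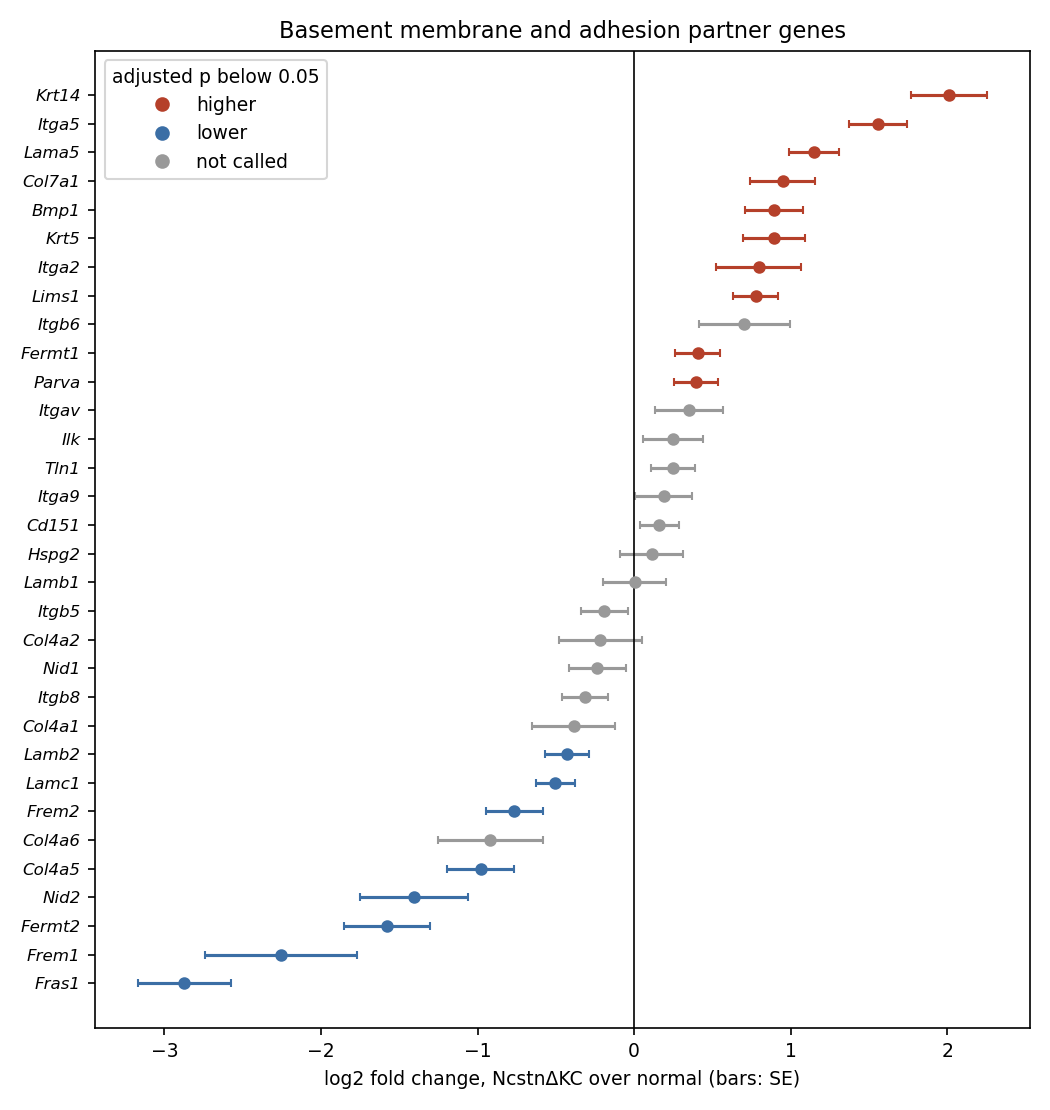
Log2 fold change of 32 basement membrane and adhesion partner genes, NcstnΔKC over normal (x axis, bars are SE), sorted by value. Krt5 and Krt14 are among these 32 and also among the basal keratinocyte markers used for scaling. Red marks the 10 genes higher at an adjusted p under 0.05, blue the 8 lower and grey the 14 not called, with Fras1 lowest at -2.87 and Krt14 highest at 2.01; with scaling by basal keratinocyte markers none is higher and 29 are lower, where 84.1% of all genes are lower and their median is -1.53.

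Libraries differed in their place within a group. Normal replicate 2 was the lowest normal library for 7 of the 9 (all but Itga3 and Itgb1), and normal replicate 1 the highest for 6. In the NcstnΔKC group, replicate 1 was lowest for Itga6, Itgb1, Itgb4 and Lama3 and highest for Col17a1, Dst and Lamb3. The average profile of the 9, as log2 CPM centred on each gene's mean, spanned 1.16 over the 8 libraries. The 5 genes nearest to that profile among 9770 other genes of at least 10 CPM were Zc3hav1, Gnai3, Zdhhc6, Plek2 and Emc3, with a root mean square difference of 0.09 each over the 8 libraries, against a median of 0.52. Of the 9 themselves Col17a1 was nearest (0.16), the other integrin and laminin genes but Itga3 lay at 0.21 to 0.37, and Itga3 (0.71), Plec (0.75) and Dst (0.98) lay farther from it than the median gene.

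RefSeq promoter windows for GRCm38.p6 were searched for 5 of the 9 genes (Itga3, Itgb1, Col17a1, Dst and Lamb3), with 8 start sites. Chromosome 18, which holds Lama3, was left out of this search of the 9 genes. The promoter set held no window for Itga6, Itgb4 or Plec. In the 250 bases before the start, both strands were searched for the GC box GGGCGG, the TATA box TATAAA and the AP-1 motif TGANTCA. A GC box was in 3 of the genes (Itga3 in both windows, Itgb1, and Dst in the upstream window alone) and in 32.7% of all 32851 windows. That share counts windows, and a gene with several windows has more chances of a match. A TATA box was in Col17a1 and in 12.4% of all windows. The AP-1 motif was in none of the 8 and in 6.75% of all windows. The matches describe letters in these windows.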

How the data were processed

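RNA sequencing libraries of 8 skin samples were grouped by their labels. The authors deposited raw whole-number counts per Ensembl gene, and FPKM values that the table's header names. The submitters' processing notes list TopHat2 2.0.9, TopHat and HTSeq, with mm10 and hg38 as builds, and give none a role. Strandedness, annotation release and the treatment of multimapping reads are not given in the sources used here. For the 9 genes the deposited FPKM equalled the count over the column total, divided by a fixed length of each gene. Coordinates are those of the deposited table, and all 9 match GENCODE M21 for GRCm38.

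After filterByExpr and TMM scaling, groups were compared with edgeR's robust quasi-likelihood test (edgeR 4.0.16, R 4.3.3, two-sided, Benjamini-Hochberg over 15684 genes, threshold 0.05). Differences between 2 genes within a library used log2 CPM with a prior count of 2 and exact permutation (two-sided, 70 arrangements, smallest p 0.0286), with adjustment over 16 such differences. The biological coefficient of variation common to all genes was 0.315. Alternatives were DESeq2 1.42.0 size factors and Wald test, total-count and basal keratinocyte scaling, limma 3.58.1 (voom, and trend on log2(FPKM + 1)), no filter, at least 1 CPM in 4 libraries, a replicate block, Xist as a covariate or stratum, removal of gene classes, and leaving out each library. The fit without both NcstnΔKC replicate 1 and normal replicate 2, and the test of the difference between libraries with and without Xist, were added after seeing the data. Laminin genes outside the 9 genes and the partner list are not reported here.

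The 9 genes, the lists and the tests were chosen with earlier results of these data known. The rule for named genes took all 9 genes, any gene of the partner list with the lowest p first, Ncstn, and the 5 genes nearest to the average profile. Python 3.11.15, numpy 2.4.6, scipy 1.17.1, pandas 2.3.3 and matplotlib 3.10.9 were used.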

Additional observations from a re-analysis of the deposited data

Results flagged for a closer look

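Among 50 sets of 4 values tested for a value far from the others (9 genes and 16 within-library differences in each group), 1 stood apart, where chance gives about 1 in 20. Lamb3 minus the mean of Krt5 and Krt14 was -3.49 on the log2 scale in NcstnΔKC replicate 1 and -4.46 to -4.62 in the other 3 NcstnΔKC libraries. That library had the highest Lamb3 value (251 CPM) and the lowest basal keratinocyte marker sum of its group (6846 CPM, against 10144 to 10911 CPM), and the part of either was not tested.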

How the results depend on the processing

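For the 9 genes, Itga3 and Dst lost their call in 1 of 22 alternatives each, the libraries without Xist alone (2.02 and -0.93). There the others, too, did not pass, with 1.30 for Itga6, 1.02 for Itgb1, 1.01 for Itgb4, 0.98 for Col17a1, 0.76 for Lama3, 1.33 for Lamb3 and -0.21 for Plec, so that 0 members were higher and 0 lower, 0 partner genes were higher and 0 lower, and 4 of all genes were called. That fit has 2 libraries a group. Scaling by basal keratinocyte markers called 1 member higher and 6 lower, 0 partner genes higher and 29 lower, and 13451 of all genes (264 higher, 13187 lower, against 3360 higher and 3555 lower with TMM). It reversed Itga6 (-0.18), Itgb1 (-0.40), Itgb4 (-0.38), Col17a1 (-0.84), Lama3 (-0.70), Lamb3 (-0.16), Krt5 (-0.63), Cd151 (-1.36), Lama5 (-0.35), Col7a1 (-0.57), Bmp1 (-0.60), Lims1 (-0.73), Zc3hav1 (-0.76), Gnai3 (-0.68), Zdhhc6 (-0.78), Plek2 (-0.84) and Emc3 (-0.73). The median of all genes was then -1.53, and Krt5 is itself one of the scaling markers. Plec lost its call with total counts (-0.32; 5323 genes higher, 2224 lower), no filter (-0.50), FPKM (-0.33; 5351 higher, 2115 lower) and the replicate block (-0.67, adjusted p = 0.083), which left 1 member lower in each, and total counts and FPKM left 5 and 4 partner genes lower. Col17a1 lost its call with the replicate block (0.69, adjusted p = 0.0724) and Xist as a covariate (0.66). The cause was not tested. The block changed no other call of the 9. No label says whether shared replicate numbers pair samples. Deviations of samples with the same number correlated at -0.02, -0.03, -0.01 and 0.22, and replicate 4 alone correlated best with its own number. In both groups replicates 3 and 4 held Xist and replicates 1 and 2 nearly none. These correlations cannot exclude shared litters, cages or processing, so pairing was left undecided. Without both NcstnΔKC replicate 1 and normal replicate 2, Col17a1 was at 0.43 and still called.

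Leaving out 1 library at a time gave 2.09 to 2.24 for Itga3, 1.23 to 1.56 for Itga6, 1.07 to 1.23 for Itgb1, 1.07 to 1.30 for Itgb4, 0.55 to 0.82 for Col17a1, -1.33 to -0.97 for Dst, -0.79 to -0.50 for Plec, 0.75 to 0.96 for Lama3 and 1.23 to 1.61 for Lamb3. Members called higher were 6 to 7 and lower 1 to 2, and all genes called 5619 to 7994. The within-library differences near 0 that changed sign were Itgb4 minus Itgb1 (-0.086 to 0.13), Itga6 minus the keratins (-0.26 to 0.040) and Lamb3 minus the keratins (-0.31 to 0.089). Ncstn ran from -0.14 to 0.0055 and was at 0.24 with total counts, 0.063 with no filter and 0.23 with FPKM. With scaling by basal keratinocyte markers Ncstn was called lower at -1.57 (edgeR adjusted p = 1.84e-05), where the median of all genes was -1.53. A minimum of 1 CPM in 4 libraries kept the same number of genes as filterByExpr, 15684. The normal libraries had the lower depth, and Lamb3 had the lowest count of the 9, 282, in normal replicate 2.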
